A study of Mus musculus with 22 samples.

Results

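Intima of wild-type mouse aortas that had been kept for 4 h in culture medium (DMEM) was compared, across all genes of the array, with intima scraped from wild-type aortas that had not been cultured. The comparison used 9 of the 22 arrays of the series, 3 medium-incubated and 6 fresh. In the medium-incubated group each aorta was laid open in a well with DMEM holding 1% serum at 37 °C and 5% CO2, with no added stimulus. The fresh group came from chow-fed C57BL/6 wild-type mice 4 weeks old. The explanted aortas were also wild type, but the labels give no age for those mice, so an age difference and the incubation cannot be told apart. A further 13 arrays served as a second look at the incubation. Wild-type explants kept 4 h with LPS (4 ng/mL), oxLDL (50 µg/mL) or oxPAPC (50 µg/mL) had 3 arrays each. Fresh intima of 4-week-old chow-fed ApoE-/- mice, labelled BL6 (C57BL/6) like the fresh wild type, had 4 arrays. RNA of all arrays had an integrity number of at least 7.0 and was amplified before labelling. The number of animals behind an array is not stated, so p-values measure the spread between arrays.

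The aortic intima is a sheet of endothelial cells on a basement membrane, next to the smooth muscle of the media. In the vessel it is bathed in blood and held under flow, and laminar flow is known to keep the transcription factor Klf2 and nitric oxide synthesis switched on. Endothelial cells are also known to answer injury, cytokines and a shortage of oxygen or amino acids with fast transcriptional programs: the immediate early genes, NF-kB targets, HIF targets and ATF4 targets. An explant loses flow and blood at once, and each of these gene groups was examined.

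Most genes differed. Of 11807 genes on the array, 7508 passed a filter on low signal (above the 40th percentile of the array on at least 3 of the 9 arrays), and 4410 of these, or 58.7%, were called at an adjusted p under 0.05 (limma, Benjamini-Hochberg). Calls were 1824 higher (24.3% of tested genes) and 2586 lower (34.4%) in medium-incubated intima. A difference of at least 1 on the log2 scale, which is a doubling, was reached by 843 of the higher and 921 of the lower calls. The median over all tested genes was -0.13, and after cyclic loess the split turned to 2234 higher and 2012 lower, and after median centring to 2226 higher and 1960 lower. All 3 medium arrays lay above all 6 fresh ones for 22.3% of tested genes and below them for 30.2%. Medium-incubated arrays correlated with each other at 0.982 to 0.988 over genes, fresh wild-type arrays at 0.979 to 0.991, and medium with fresh arrays at 0.917 to 0.937. For 224 of the higher calls the fresh mean lay below the 40th percentile, and for 323 of the lower calls the medium mean did, so a fold or difference there is against a level not above background. Of the genes named below this holds for Adamts4, Adm, Arntl, Asns, Bcl3, Cd68, Chac1, Cry1, Dll4, Egln3, F3, Fosl1, Hmox1, Hpgds, Il1b, Il6, Irf8, Lif, Mrc1, Msmo1, Nhp2, Noct, Olr1, Osgin1, Pgf, Pmaip1, Pparg, Rel, Sesn2, Slc40a1, Slc7a5, Socs3, Sphk1, Sprr1a, Timp1 and Yars, all called higher, and for Cd163, Hmgn3, Ifit2, Il15 and Jam3, called lower. The 3 medium arrays alone can pass a gene through the filter. A gene low on all fresh arrays was therefore tested only if it was high in medium. Because so many genes were called, the count in each gene list is read below against 24.3% and 34.4%. The lists were chosen with earlier results of these data known, so a share that departs from these is a description and not a test.

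**Figure D1:**
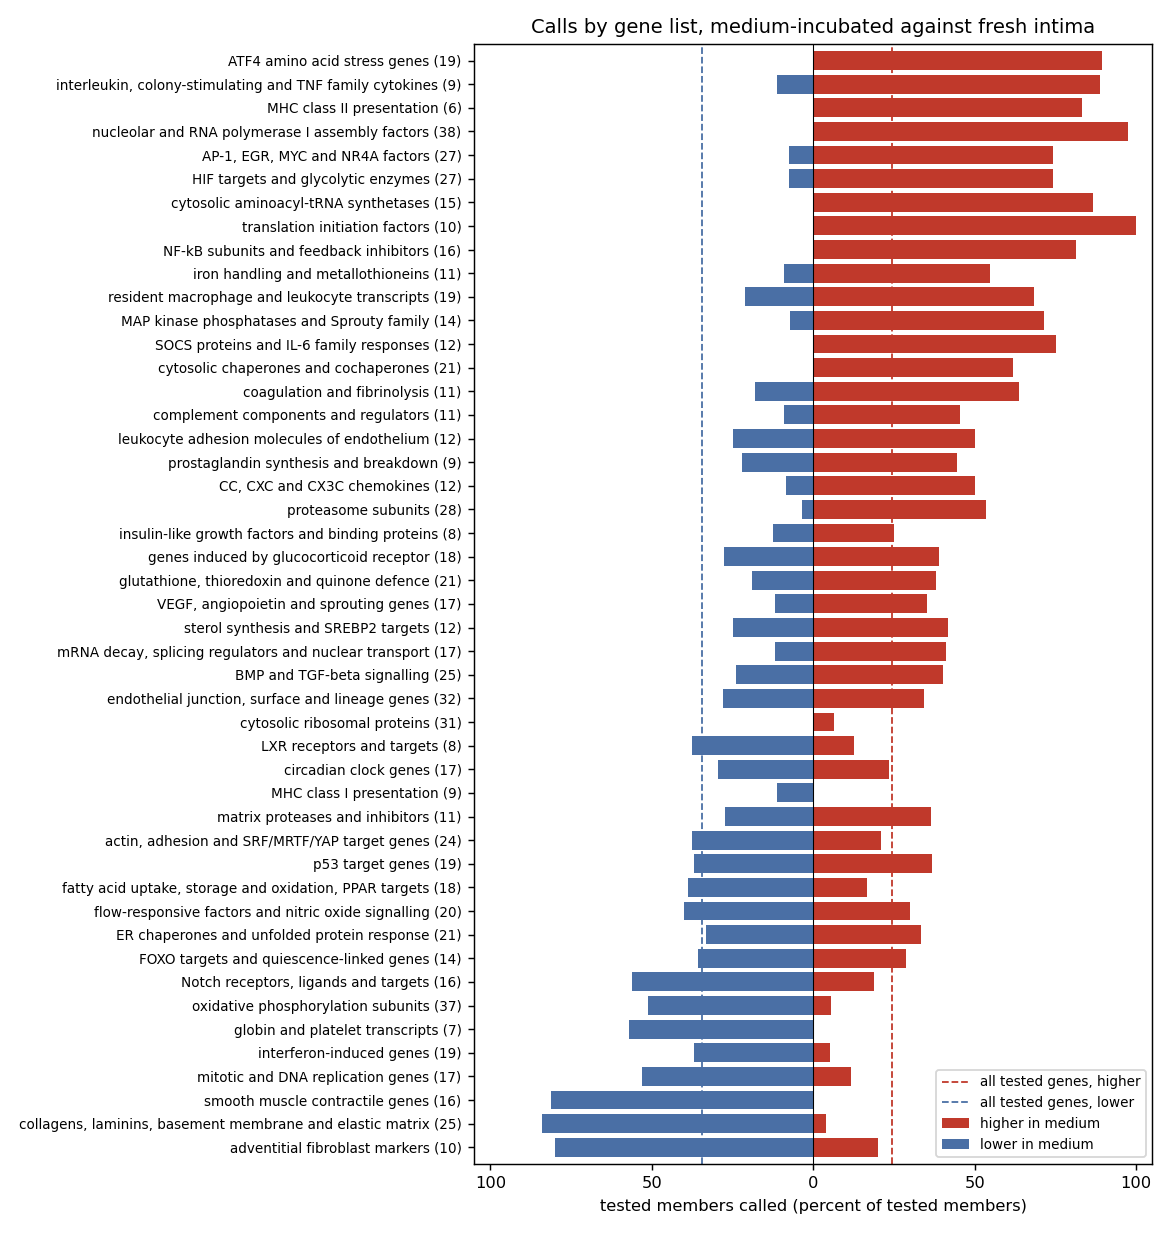
Share of the tested members of each gene list called higher (red, to the right) or lower (blue, to the left) in medium-incubated intima, against fresh wild-type intima, at an adjusted p under 0.05 (limma). Numbers in brackets are tested members, lists with under 6 tested members are not drawn, rows are ordered by median difference, and dashed lines mark the shares over all tested genes, 24.3% higher and 34.4% lower.

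All 10 endothelial markers (among them Pecam1, Cdh5, Kdr and Vwf) were measured and passed the filter, and their mean log2 signal was 8.94 to 9.04 in the medium-incubated arrays and 8.52 to 9.25 in the fresh ones. Smooth muscle markers were present in both groups as well, with 6 of 8 on the array, at 7.53 to 8.44 in medium and 8.70 to 9.52 in fresh intima. The 2 ranges did not overlap, and 5 of the 6 were called lower. In such mixed tissue fewer cells of a type and less RNA per cell cannot be told apart. Macrophage markers were at 5.70 to 5.75 in medium and 4.03 to 4.67 in fresh intima, with all 5 tested of 6 called higher. Of the fibroblast markers 4 were measured, at 6.57 to 6.99 in medium and 6.21 to 6.90 in fresh intima. Lymphoid and granulocyte markers lay at 3.94 to 4.05 in medium and 3.81 to 4.20 in fresh intima, and 5 of the 6 were below the 40th percentile in both groups. Globin and platelet markers lay at 7.03 to 7.59 in medium against 6.88 to 8.61 in fresh intima, a wide spread among fresh arrays. The part these differences in cell markers play in the results below was not tested. A further fit adds each array's mean smooth muscle signal, over a longer list, as a covariate. That mean was 7.54 to 8.45 in medium and 8.60 to 9.51 in fresh arrays, without overlap. Smooth muscle signal and incubation therefore cannot be told apart in that fit, and a kept or lost call does not show what cell composition contributes. Named genes that lost their call in the covariate fit, where errors are wider, are given beside their values.

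**Figure D2:**
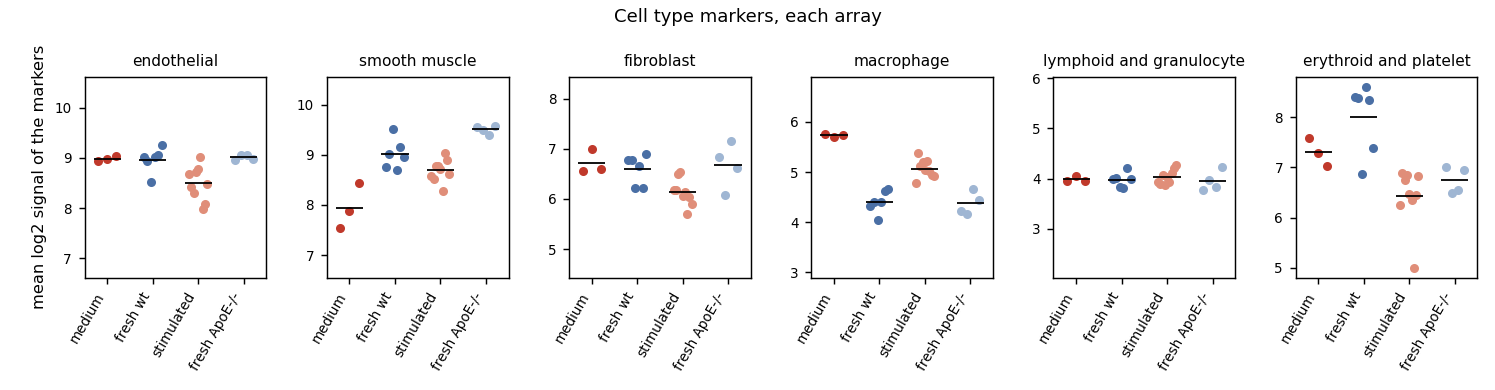
Mean log2 signal (vertical axis) of the markers of 6 cell types on each array (points), with the group mean as a line, for medium-incubated, fresh wild-type, stimulated (LPS, oxLDL or oxPAPC) and fresh ApoE-/- intima. Endothelial markers overlap between medium and fresh wild type, while smooth muscle markers lie lower and macrophage markers higher in the medium arrays.

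Among lists with at least 6 tested members, the genes of amino acid shortage had the highest median difference. When uncharged tRNA or other stress leads to phosphorylation of the initiation factor eIF2, the transcription factor ATF4 is made and switches on amino acid transporters, amino acid synthesis and tRNA charging. Of 22 measured ATF4 genes 19 passed the filter, 17 were called higher and none lower, with a median difference of 2.11 among tested and 2.0 among all measured members. Atf4 itself was higher by 2.48 ± 0.17 (SE) on the log2 scale (adjusted p = 1.3e-06).

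Chac1, which encodes a glutathione-degrading enzyme, had log2 signals of 8.80, 9.07 and 8.94 in the medium arrays, against 2.78 to 3.37 (median 3.19) in the fresh arrays. The lowest medium value was far above the highest fresh one. The difference was 5.80 ± 0.14 (SE), or 55.8-fold (limma adjusted p = 1.0e-09). Asns, encoding asparagine synthetase, read 8.99, 9.33 and 9.35 in medium and 3.88 to 4.49 (median 4.03) in fresh intima, a 35.2-fold difference (adjusted p = 4.6e-09). Slc7a5, the light chain of the large neutral amino acid transporter, read 9.89, 9.98 and 10.11 in medium against 4.31 to 5.03 (median 4.58) in fresh intima. These groups were again separate, by 5.38 ± 0.16 (adjusted p = 4.6e-09). Fresh values of Chac1 and Asns lay below the 40th percentile of their arrays, so their folds rest on a level close to background. Psat1, of serine synthesis, was higher by 4.44 ± 0.23 (adjusted p = 3.3e-07), and Sesn2, a brake on mTORC1, by 3.59 ± 0.17 (adjusted p = 1.6e-07). Trib3, Ddit3 (CHOP) and Ppp1r15a (GADD34), which act downstream of ATF4, were higher by 2.16, 2.50 and 2.73. Vldlr (0.43) and Stc2 (0.49) passed the filter without a call.

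The core of the ATF4 response element, TGATGNAA on either strand, was looked for in the 250 bases before each gene's start in RefSeq promoters of build GRCm38.p6. It was found in 5 of 20 ATF4 genes with a promoter in the table (25%), in 2 of 10 tRNA synthetase genes (20%) and in 3.91% of all 27025 genes. The ATF4 genes with the core were Asns, Chac1, Nupr1, Slc7a11 and Vldlr, of which Vldlr had no call and Slc7a11 was not tested. Chac1 and Asns, among the largest rises, are shown with the match in capitals. The Chac1 window is chr2:119350992-119351241 on the plus strand, with the match starting 193 bases before the start. The Asns window is chr6:7693210-7693459 on the minus strand, with the match starting 23 bases before it. A match is a description of these letters, and binding was not measured. Here and for the elements below, shares count list members whether called or not.
Chac1: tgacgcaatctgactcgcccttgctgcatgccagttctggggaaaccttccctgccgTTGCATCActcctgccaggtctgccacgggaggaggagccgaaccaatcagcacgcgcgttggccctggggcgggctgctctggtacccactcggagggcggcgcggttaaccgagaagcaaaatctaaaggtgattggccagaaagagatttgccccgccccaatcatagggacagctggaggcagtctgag
Asns: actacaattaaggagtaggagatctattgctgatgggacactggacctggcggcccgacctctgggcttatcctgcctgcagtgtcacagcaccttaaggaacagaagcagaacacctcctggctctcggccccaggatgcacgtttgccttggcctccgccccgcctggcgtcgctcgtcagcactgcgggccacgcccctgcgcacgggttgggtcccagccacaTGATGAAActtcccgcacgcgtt

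Enzymes that charge tRNAs and proteins that start translation were higher alongside. Of 15 tested cytosolic aminoacyl-tRNA synthetases 13 were called higher and none lower, with a median of 1.40. Iars, for isoleucine, read 9.53, 9.32 and 9.91 in medium against 6.27 to 7.33 (median 6.64) in fresh intima, with no overlap (7.29-fold, adjusted p = 6.2e-06). Yars, for tyrosine, read 6.86, 6.70 and 6.71 in medium against 3.69 to 4.14 (median 4.05) in fresh intima (6.82-fold, adjusted p = 1.2e-07), a fresh level below the 40th percentile. Qars, for glutamine, at -0.42, and Wars, for tryptophan, at 0.51, were the 2 without a call. All 10 tested translation initiation genes were called higher, led by Eif1a (2.83 ± 0.14, adjusted p = 2.6e-07) and Eif2s2, the beta subunit of eIF2 (2.22 ± 0.15, adjusted p = 1.4e-06).

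Genes that build ribosomes and genes that make up ribosomes parted. Of 38 tested nucleolar and RNA polymerase I factors 37 were called higher and none lower (median 1.75), the exception being Bop1 (0.03, adjusted p = 0.91). Nop58, a core protein of the box C/D snoRNPs that methylate ribosomal RNA, read 10.51, 10.36 and 10.30 in medium against 7.21 to 8.12 (median 7.79) in fresh intima. The groups were separate, with a 6.3-fold difference (adjusted p = 1.3e-06). Nhp2, of the box H/ACA snoRNPs that make pseudouridine, was higher by 2.97 ± 0.15, Rrs1, a large-subunit assembly factor, by 2.91 ± 0.13, and Nolc1, a nucleolar chaperone, by 2.86 ± 0.18 (adjusted p = 1.9e-07, 1.2e-07 and 9.3e-07). Of 31 tested ribosomal protein genes 2 were called higher and none lower, and their median difference was 0.01. The exceptions were Rpl14 (1.09 ± 0.29, adjusted p = 0.0084) and Rpl8 (0.31 ± 0.10, adjusted p = 0.017), which lost their calls with the smooth muscle covariate (adjusted p = 0.089 and 0.33), Rpl8 also without the medium array labelled 9 (adjusted p = 0.075). Rpl3, a large-subunit protein, read 10.84, 10.74 and 10.77 in medium and 10.68 to 10.88 (median 10.81) in fresh intima. With cyclic loess the ribosomal protein list had 7 higher calls and a median of 0.08, and the ribosome assembly list 37 and 1.90. The E-box CACGTG stood before 3 of 34 ribosome assembly genes with a promoter (8.82%), near the 6.86% of all genes. Proteasome subunits also leaned upward, with 15 higher and 1 lower of 28 tested and a smaller median of 0.33.

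**Figure D3:**
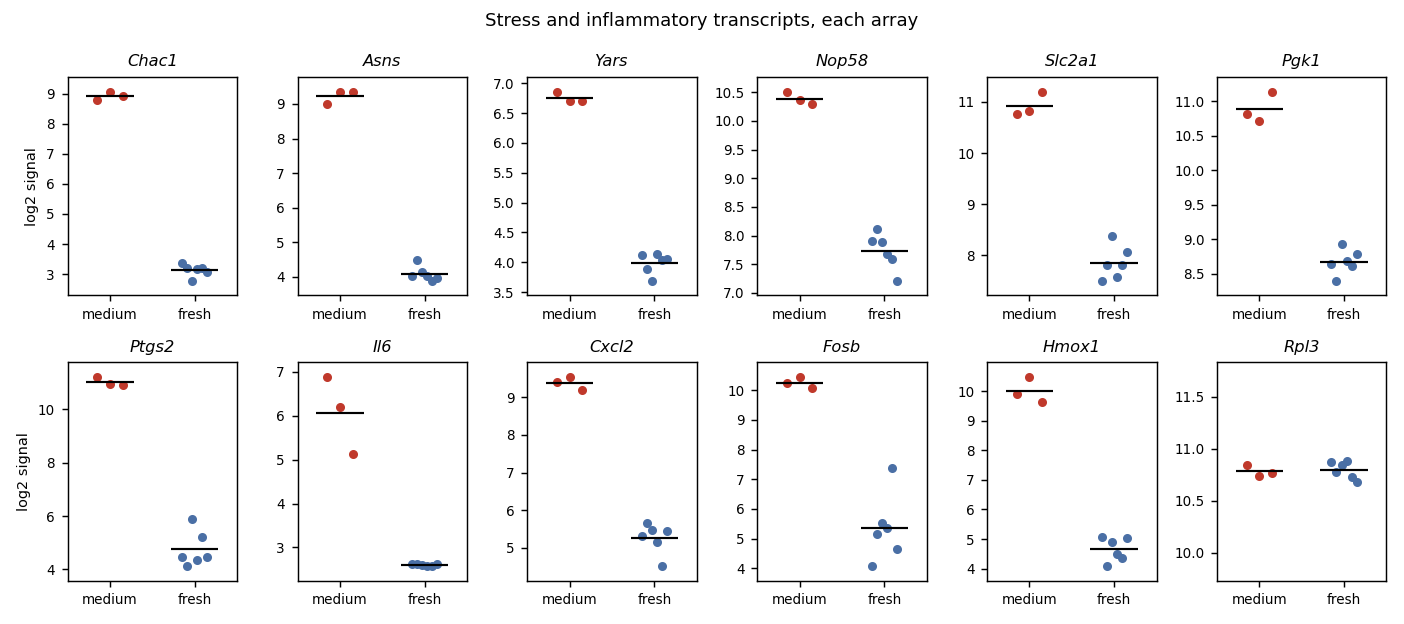
Log2 signal (vertical axes, each spanning at least 2 units) of 12 transcripts on each array, medium-incubated (red, 3 arrays) and fresh wild type (blue, 6 arrays), with the group mean as a line. The groups do not overlap for the 11 stress, growth and inflammatory genes, while those of the ribosomal protein gene Rpl3 do.

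Genes of low oxygen and glycolysis were the next large group. HIF transcription factors are stabilised when oxygen falls and switch on glucose uptake, glycolysis and blood vessel growth factors, and Hif1a is also known to respond to growth and inflammatory signals. Of 27 measured and tested members 20 were called higher and 2 lower, with a median of 1.46. Slc2a1, the glucose transporter GLUT1, read 10.77, 10.82 and 11.20 in medium against 7.5 to 8.38 (median 7.81) in fresh intima. The groups lay more than 2 log2 units apart at their nearest arrays, and the difference was 8.44-fold (adjusted p = 9.3e-07). Pgk1, the glycolytic enzyme phosphoglycerate kinase, read 10.82, 10.72 and 11.14 in medium against 8.40 to 8.93 (median 8.66) in fresh intima (4.66-fold, adjusted p = 9.3e-07).

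Egln3, a prolyl hydroxylase that marks HIF for breakdown and is itself a HIF target, read 8.58, 7.63 and 9.83 in medium against 3.66 to 5.63 (median 4.50) in fresh intima. It and Adm, the vasodilator peptide adrenomedullin (7.56, 5.19 and 7.80 in medium, 2.92 to 3.68 (median 3.12) in fresh intima), varied widely among the medium arrays, both lowest on the array labelled 10. Their differences from fresh means below the 40th percentile were 4.14 ± 0.49 and 3.62 ± 0.47 (adjusted p = 4.9e-05 and 9.4e-05). Hk1, Vegfa, Hk2, Pfkfb3 and Hif1a were higher by 2.56, 2.4, 2.31, 2.28 and 2.13, all with separate groups. Epas1, which encodes HIF-2 alpha, was lower instead (-0.80 ± 0.17, adjusted p = 0.0022, and 0.063 with the smooth muscle covariate). Car9, carbonic anhydrase IX and a widely used HIF marker, was at -0.33 and not called (adjusted p = 0.33).

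The core of the hypoxia response element, ACGTGC on either strand, stood in the 250 bases before 11 of 24 genes of the list with a promoter in the table (45.8%) and before 5.63% of all genes. Among these 11 carriers Car9, Egln1, Mxi1 and P4ha2 had no call. The share covers list members whether called or not, so it describes the list and not the incubation. The windows of Slc2a1 (chr4:119108495-119108744, plus strand, match 36 bases before the start) and Pgk1 (chrX:106186850-106187099, plus strand, match 132 bases before the start) are shown for the glucose carrier and the glycolytic enzyme just described, with the match in capitals.
Slc2a1: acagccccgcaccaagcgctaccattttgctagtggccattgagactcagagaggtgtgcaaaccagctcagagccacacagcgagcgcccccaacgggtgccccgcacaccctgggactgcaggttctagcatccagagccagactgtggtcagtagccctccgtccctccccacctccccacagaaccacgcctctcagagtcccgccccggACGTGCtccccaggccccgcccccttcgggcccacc
Pgk1: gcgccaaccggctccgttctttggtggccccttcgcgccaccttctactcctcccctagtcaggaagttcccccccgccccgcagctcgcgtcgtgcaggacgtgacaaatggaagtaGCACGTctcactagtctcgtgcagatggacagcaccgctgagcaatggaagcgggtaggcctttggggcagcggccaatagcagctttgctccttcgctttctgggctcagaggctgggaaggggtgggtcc

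Genes of oxidative phosphorylation leaned the other way. Of 37 tested oxidative phosphorylation subunits 19 were called lower and 2 higher, with a median of -0.36 (background -0.13). The largest falls were Ndufb3 (-1.27) and Ndufs7 (-1.11), both of complex I, and the rises were Cycs, cytochrome c (1.16), and Atp5g1, an ATP synthase subunit (0.89). Enzymes of fatty acid oxidation were lower among the called: Acadm (-1.52), Cpt1a, the carnitine shuttle's entry enzyme (-1.5), and Decr1 (-1.35). The fatty acid list as a whole, with 7 lower and 3 higher of 18 tested, was near the background shares, and its rises were Cd36, the fatty acid and oxidised lipid receptor (2.07), and Pparg, a lipid-sensing nuclear receptor (1.90), beside Fabp4 (0.48). With the smooth muscle covariate Cd36, Fabp4 and Atp5g1 lost their calls (adjusted p = 0.20, 0.42 and 0.055).

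Immediate early genes were high after 4 h. These genes need no new protein for their induction, and in cultured cells most of them peak and decay within the first hours. Of 27 tested members 20 were called higher and 2 lower (median 1.5). Fosb, of the AP-1 family, read 10.24, 10.44 and 10.08 in medium against 4.07 to 7.39 (median 5.26) in fresh intima, where 1 array stood about 2 units above the next. The difference was 29.8-fold (adjusted p = 3.5e-05). Fosl1 was higher by 4.33 ± 0.23, Myc by 4.09 ± 0.40 and Egr2 by 3.88 ± 0.28 (adjusted p = 3.4e-07, 1.2e-05 and 2.2e-06). Fos read 10.17, 9.76 and 9.56 in medium against 4.88 to 7.80 (median 6.08) in fresh intima, a spread of nearly 3 units among fresh arrays beside a difference of 3.60 ± 0.61 (adjusted p = 5.2e-04). Jun, the usual partner of Fos, read 10.57, 10.72 and 10.57 in medium and 10.19 to 10.73 (median 10.65) in fresh intima, which overlap (0.10, adjusted p = 0.6). The 2 falls were Srf, the serum response factor (-0.65 ± 0.19, adjusted p = 0.014), and its target Ccn1, a matrix-bound growth regulator (-1.32 ± 0.43, adjusted p = 0.022). Both lost the call when a medium array was left out, Srf without array 9 or 10 (adjusted p = 0.067 and 0.059) and Ccn1 without array 11 (adjusted p = 0.097), and with the smooth muscle covariate (adjusted p = 0.95 and 0.70), where Srf was at 0.02.

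Genes linked to MAP kinase signalling and its feedback were higher too, 10 of 14 tested, with 1 lower. Gadd45a, a stress sensor that binds upstream kinases, read 10.66, 10.51 and 10.43 in medium against 5.34 to 6.95 (median 6.65) in fresh intima (18.6-fold, adjusted p = 4.3e-06). Errfi1, an inhibitor of the EGF receptor, was higher by 4.14 ± 0.33 (adjusted p = 3.5e-06). Hbegf, a ligand of that receptor, read 11.10, 11.14 and 10.92 in medium against 5.08 to 7.70 (median 6.11) in fresh intima, 27.2-fold higher (adjusted p = 7.6e-06). Dusp8, a phosphatase of the stress-activated MAP kinases, was the fall, at -1.07 ± 0.34 (adjusted p = 0.02), with overlapping arrays and no call without the medium array labelled 9 or with the smooth muscle covariate (adjusted p = 0.089 and 0.94). The list of cytoskeletal genes and targets of SRF and YAP signalling had shares near the background (9 lower and 5 higher of 24 tested), with Zyx, the focal adhesion protein zyxin, at -2.21 ± 0.15 (adjusted p = 1.7e-06).

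The largest rise of any tested gene was in Ptgs2, which encodes cyclooxygenase-2, the inducible enzyme of prostaglandin synthesis. It read 11.21, 10.95 and 10.90 in medium against 4.12 to 5.90 (median 4.46) in fresh intima, a difference of 6.27 ± 0.34 (SE), or 77.2-fold (limma adjusted p = 3.7e-07). Even the highest fresh array lay about 5 units below the lowest medium array. Hpgds, which makes prostaglandin D2, was higher by 2.87 ± 0.22 (adjusted p = 3.2e-06). Ptgis, which makes the endothelial prostaglandin prostacyclin, was at 0.39 without a call (adjusted p = 0.062), and Ptges, which makes prostaglandin E2, stayed below the filter. The prostaglandin reductase Ptgr1 was called lower (-0.90), though not with the smooth muscle covariate (adjusted p = 0.26). The list had 4 higher and 2 lower calls of 9 tested.

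Cytokine genes rose with no stimulus in the medium. Of 19 measured cytokines 9 passed the filter, and 8 of these were called higher. Cytokines low on all fresh arrays passed only through the medium arrays, so this count leans upward by selection. The median difference was 2.01 among tested and 0.9 among all measured members. Il6 read 6.87, 6.18 and 5.13 in medium against 2.58 to 2.62 (median 2.61) in fresh intima, where all arrays were at one low level (11-fold, adjusted p = 4.0e-06). Il1b read 8.46, 8.14 and 7.49 in medium against 4.00 to 4.57 (median 4.28) in fresh intima (13.4-fold, adjusted p = 3.7e-07). Lif, a cytokine of the IL-6 family, read 9.02, 7.44 and 8.28 in medium against 3.76 to 4.20 (median 4.06) in fresh intima (18.6-fold, adjusted p = 9.3e-07). In all 3 the groups were separate and the fresh means lay below the 40th percentile, close to background. Receptor and signalling genes of the same family were higher as well: Osmr by 2.58, Il6ra by 2.37, Stat3 by 1.27, and the inhibitor Socs3 by 2.46, among 9 of 12 tested. Il15 was the cytokine called lower (-1.5 ± 0.23, adjusted p = 2.4e-04). Tnf, Il1a and Il33 did not pass the filter.

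Neutrophil-attracting chemokines led their list. Cxcl2 read 9.41, 9.54 and 9.19 in medium against 4.51 to 5.65 (median 5.37) in fresh intima, 17.4-fold higher (adjusted p = 3.4e-07). Cxcl1 read 10.16, 10.23 and 9.27 in medium against 7.53 to 8.81 (median 8.06) in fresh intima, 3.35-fold higher (adjusted p = 6.4e-04). Its lowest medium array stood only slightly above its highest fresh array. Cxcl16 (1.68), Ccl9 (1.17) and Cxcl12 (1.14) were also called higher, which gives 6 of 12 tested, and Ccl27a was called lower (-0.73). Cxcl1, Ccl9, Cxcl12 and Ccl27a lost their calls with the smooth muscle covariate (adjusted p = 0.15, 0.49, 0.22 and 0.050). Cxcl10, known for its induction by interferons, was at 0.29 (adjusted p = 0.41), and 16 of the 29 measured chemokines lay below the 40th percentile in both groups. The NF-kB site, GGGA and TTCC with any 2 bases between them on either strand, was found before 3 of 20 chemokine genes with a promoter in the table (15%), and before 1.36% of all genes. Cxcl1 (chr5:90890995-90891244, plus strand) and Cxcl2 (chr5:90903649-90903898, plus strand), the rises among the carriers, each hold 2 overlapping matches, in capitals, that start 71 and 97 bases before the gene's start.
Cxcl1: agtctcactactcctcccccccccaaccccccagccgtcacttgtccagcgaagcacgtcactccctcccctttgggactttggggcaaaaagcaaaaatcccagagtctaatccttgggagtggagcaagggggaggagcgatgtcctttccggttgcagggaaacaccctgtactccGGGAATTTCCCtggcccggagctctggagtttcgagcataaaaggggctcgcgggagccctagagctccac
Cxcl2: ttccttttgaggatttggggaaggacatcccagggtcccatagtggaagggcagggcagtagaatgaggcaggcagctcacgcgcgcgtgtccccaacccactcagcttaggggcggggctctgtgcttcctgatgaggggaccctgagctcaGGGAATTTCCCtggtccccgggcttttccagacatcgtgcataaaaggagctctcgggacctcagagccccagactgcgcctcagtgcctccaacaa

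The NF-kB system's own genes were higher, 13 of 16 tested and none lower, with a median of 1.24. They included the subunit Rel (2.68 ± 0.21, adjusted p = 3.6e-06), the nuclear inhibitor Bcl3 (2.97 ± 0.10, adjusted p = 9.4e-09), the ubiquitin ligase Birc3 (2.0) and Nfkbia, the inhibitor that holds NF-kB in the cytosol (1.63). Bcl2a1a was higher by 2.69, but its probes may also read its near-identical gene copies. Of 12 tested adhesion genes of endothelium 6 were called higher and 3 lower, and the rises included molecules that capture rolling and adherent leukocytes. Sele (E-selectin) read 10.87, 10.94 and 11.04 in medium against 6.63 to 9.07 (median 8.09) in fresh intima. The medium arrays were nearly equal while the fresh ones spanned over 2 units, and the difference was 7.9-fold (adjusted p = 1.1e-04). Selp (P-selectin) was higher by 2.31 ± 0.16, Vcam1 by 1.66 ± 0.16 and Icam1 by 1.42 ± 0.11 (adjusted p = 1.8e-06, 1.3e-05 and 3.7e-06). The junctional adhesion genes Pecam1 (-0.34) and Jam3 (-0.41) were called lower on the deposited scale, and none of the list was called lower after cyclic loess or median centring. With the smooth muscle covariate they had no call either (adjusted p = 0.20 and 0.54), nor had Pecam1 without the medium array labelled 9, 10 or 11 (adjusted p = 0.085, 0.082 and 0.051).

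Interferon-induced genes did not share the rise. Of 19 tested 7 were called lower, a share close to the 34.4% of all genes, and 1 higher. Gbp3 (-1.98), Ifit3 (-1.95), Ifit2 (-1.82) and Rsad2 (-1.22), antiviral effectors, were among the falls. Rsad2 lost its call without the medium array labelled 11 (adjusted p = 0.11) and Ifit2 with the smooth muscle covariate (adjusted p = 0.13). Irf8, a factor of myeloid cells, was the rise (0.65). MHC class I genes had 1 lower and no higher call among 9 tested.

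Heme and oxidant defence genes rose in part. Hmox1, heme oxygenase-1, read 9.90, 10.47 and 9.63 in medium against 4.09 to 5.08 (median 4.70) in fresh intima, 40.5-fold higher (adjusted p = 1.6e-07). Other targets of the oxidant-sensing factor Nrf2 that were called higher were Srxn1, sulfiredoxin (2.32), Txnrd1, thioredoxin reductase (2.24), Osgin1 (2.20) and Gclc, of glutathione synthesis (2.08). Nqo1, a standard Nrf2 target, read 6.88, 7.18 and 7.36 in medium and 7.09 to 7.48 (median 7.27) in fresh intima and was not called (adjusted p = 0.37). Catalase (Cat, -1.52 ± 0.13), Sod3 (-1.10 ± 0.16) and the glutathione transferase Gstm2 (-0.81 ± 0.15) were lower (adjusted p = 4.2e-06, 1.6e-04 and 8.1e-04), Gstm2 without a call under the smooth muscle covariate (adjusted p = 0.15). In all 8 of 21 tested were higher and 4 lower. Iron and metal handling genes had 6 higher and 1 lower calls of 11 tested, with Tfrc, the transferrin receptor, at 3.69 ± 0.31, the metallothionein Mt1 at 3.42 ± 0.24 and the iron exporter Slc40a1 at 2.19 ± 0.26 (adjusted p = 4.5e-06, 1.9e-06 and 4.9e-05).

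Protein-folding genes split by compartment. Of 21 tested cytosolic chaperones and cochaperones 13 were higher and none lower, led by Bag3 (2.26), Hsp90aa1 (1.61) and Hspa1b (1.57), whose probes may also read the near-identical Hspa1a. In the endoplasmic reticulum 7 of 21 were higher and 7 lower, near the shares over all genes. The rises were sensors, transcription factors and some chaperones: Ern1, which encodes the sensor IRE1 (2.63), Ddit3 (2.50), Dnajb9 (1.74), Herpud1 (1.64) and Atf6 (1.61). The falls were Creld2 (-0.93), the disulphide isomerases Pdia6 (-0.85) and Pdia4 (-0.70), the degradation factor Sel1l (-0.85) and Hsp90b1 (-0.53). Hspa1b, Pdia4 and Hsp90b1 lost their calls with the smooth muscle covariate (adjusted p = 0.07, 0.19 and 0.085), and Pdia6 when the probe sets of a gene were averaged (adjusted p = 0.068).

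Among genes that define the endothelium, some of the best known markers changed in opposite directions. Of 32 tested 11 were called higher and 9 lower, near the shares over all genes, and the median difference was 0.09. Clec14a, a C-type lectin of endothelial cells, read 6.73, 6.36 and 6.53 in medium against 8.93 to 9.42 (median 9.22) in fresh intima, a separate and lower group (-2.66 ± 0.14, adjusted p = 2.9e-07). Bmx, a kinase of arterial endothelium, read 7.46, 7.24 and 7.39 in medium against 9.51 to 10.04 (median 9.84) in fresh intima (-2.44 ± 0.13, adjusted p = 3.3e-07). Sox18 (-1.35 ± 0.20) and Sox17 (-1.27 ± 0.18), transcription factors of arterial and lymphatic development, were lower, while their relative Sox7 was higher (1.46 ± 0.28) (adjusted p = 2.3e-04, 1.6e-04 and 0.001). Cdh5, VE-cadherin of the endothelial junction, read 10.64, 10.44 and 10.71 in medium against 8.67 to 9.61 (median 9.44) in fresh intima, higher by 1.23 ± 0.20 (adjusted p = 3.2e-04). Gja4 (connexin 37) was higher by 2.36 ± 0.20 and Gja5 (connexin 40) differed by -0.95 ± 0.23 (adjusted p = 5.8e-06 and 0.0052), though both form gap junctions of arterial endothelium, and Gja5 overlapped on 1 fresh array. Ets1 (2.42), Flt1, the VEGF receptor 1 (1.95), and S1pr1, the receptor for sphingosine phosphate (1.58), were higher, whereas Vwf (-0.35) and Tek, the angiopoietin receptor (-0.26), had no call. Cdh5 and Sox7 lost their calls with the smooth muscle covariate (adjusted p = 0.06 and 0.17).

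Flow-linked and nitric oxide genes had 6 higher and 8 lower calls of 20 tested, near the shares over all genes, and their known members differed in both directions. Klf2, which laminar flow is known to induce, read 5.79, 6.48 and 6.34 in medium against 6.76 to 9.0 (median 8.08) in fresh intima, lower with no overlap (-1.85 ± 0.42, adjusted p = 0.0034). Klf4, which shares many targets with Klf2 and is also induced by flow, read 11.31, 11.37 and 11.40 in medium against 10.02 to 10.67 (median 10.36) in fresh intima, higher with no overlap (1.01 ± 0.17, adjusted p = 4.6e-04). Nos3, the endothelial nitric oxide synthase and a Klf2 target, read 7.92, 8.34 and 8.28 in medium against 6.42 to 7.73 (median 7.30) in fresh intima, higher by 0.97 ± 0.24 (adjusted p = 0.0048), and Thbd, thrombomodulin, was higher by 0.60 ± 0.11 (adjusted p = 8.2e-04). Gch1, which makes the cofactor of nitric oxide synthase, was higher by 1.69 ± 0.13 (adjusted p = 3.6e-06). Edn1, the vasoconstrictor endothelin-1, which Klf2 is known to repress, read 8.73, 7.38 and 7.74 in medium against 9.25 to 10.26 (median 9.80) in fresh intima, lower by 1.8 on the log2 scale (SE 0.30, adjusted p = 4.8e-04). Both subunits of the nitric oxide receptor, Gucy1a1 (-2.04 ± 0.30) and Gucy1b1 (-1.82 ± 0.38), were lower (adjusted p = 1.9e-04 and 0.0018). These 2 genes are known from smooth muscle, whose markers were lower in the medium arrays too. With the smooth muscle covariate Klf4, Nos3, Thbd and Gucy1b1 had no call (adjusted p = 0.066, 0.18, 0.07 and 0.43).

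Notch signalling, in which a ligand on one cell cuts free a transcriptional coactivator in its neighbour, was mostly lower below the ligand. Dll4, the arterial endothelial ligand, read 6.03, 5.91 and 5.33 in medium against 3.64 to 3.96 (median 3.79) in fresh intima, higher by 1.94 ± 0.16 (adjusted p = 3.6e-06). Notch4, the endothelial receptor, read 5.67, 5.51 and 5.76 in medium against 6.48 to 7.22 (median 7.04) in fresh intima, lower with no overlap (-1.31 ± 0.17, adjusted p = 9.7e-05). Among the target genes Heyl (-1.98 ± 0.40), Hey2 (-1.92 ± 0.21), Nrarp (-1.15 ± 0.22) and Hey1 (-0.84 ± 0.19) were lower (adjusted p = 0.0016, 2.7e-05, 0.0011 and 0.0035). Notch1 (0.90) and Notch2 (0.48) were called higher. The list had 9 lower and 3 higher calls of 16 tested. Heyl is also known from smooth muscle, and with the smooth muscle covariate Heyl, Hey1 and Notch2 had no call (adjusted p = 0.34, 0.14 and 0.13).

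**Figure D4:**
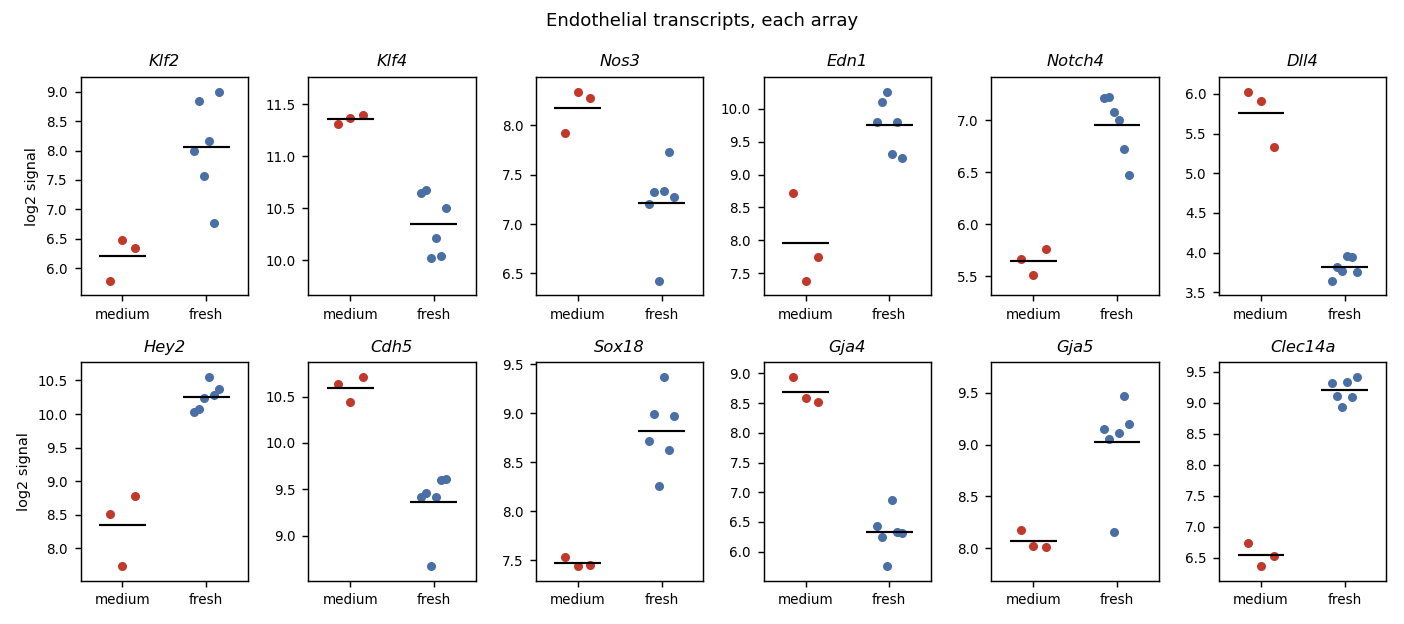
Log2 signal (vertical axes, each spanning at least 2 units) of 12 endothelial, flow-linked and Notch genes on each array, medium-incubated (red, 3 arrays) and fresh wild type (blue, 6 arrays), with the group mean as a line. Klf2 and Edn1 lie lower in medium while Klf4 and Nos3 lie higher, and Gja4 and Gja5 move in opposite directions.

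Of 19 measured clotting and fibrinolysis genes 11 passed the filter, of which 7 were called higher and 2 lower. Plau, urokinase, read 10.13, 10.13 and 9.62 in medium against 5.23 to 6.15 (median 5.42) in fresh intima, 21.5-fold higher (adjusted p = 1.6e-07). F3, tissue factor, which starts coagulation, read 7.2, 8.77 and 6.26 in medium against 3.45 to 4.44 (median 3.93) in fresh intima. It was uneven, with over 2 units between medium arrays, and was higher by 3.48 ± 0.43 (adjusted p = 6.7e-05). Plat, tissue plasminogen activator (3.07 ± 0.24), and Plaur, the urokinase receptor (3.07 ± 0.10), were higher as well (adjusted p = 3.2e-06 and 1.5e-08), and Tfpi, the inhibitor of tissue factor, was lower (-0.77 ± 0.25, adjusted p = 0.024). Tfpi had no call after cyclic loess (adjusted p = 0.064) or median centring (0.06), without the medium array labelled 9 or 11 (0.067 and 0.12) or with the smooth muscle covariate (0.12).

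Growth factor genes of the BMP and TGF-beta family gave no single direction, with 10 higher and 6 lower of 25 tested. Tgif1, a repressor of TGF-beta transcription (2.56), Tgfb1 (1.18) and Smad3 (1.17) were higher, and Bmp4 (-0.94), Bmp6 (-0.79) and Id4 (-0.98) lower. Of the VEGF and angiopoietin list 6 were higher and 2 lower of 17, among them Sphk1, a sphingosine kinase (2.94), Pgf, placental growth factor (2.37), and the coreceptor Nrp2 (1.79). Tgfb1, Smad3, Id4 and Nrp2 lost their calls with the smooth muscle covariate (adjusted p = 0.23, 0.16, 0.49 and 0.057).

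Matrix genes had the largest share of lower calls among lists with at least 6 tested members. Of 25 tested collagens, laminins and other matrix genes 21 were called lower and 1 higher, with a median of -1.01. Eln, elastin, read 9.87, 9.82 and 10.72 in medium against 12.10 to 12.38 (median 12.32) in fresh intima, a separate lower group (-2.13 ± 0.19, adjusted p = 6.9e-06). Col4a3, a basement membrane collagen, read 7.05, 6.56 and 6.49 in medium against 8.88 to 9.67 (median 9.41) in fresh intima (-2.62 ± 0.19, adjusted p = 1.8e-06). Col1a1, the main fibrillar collagen, is counted with the fibroblast genes below and not in the matrix list. Col1a1 read 6.66, 7.17 and 8.51 in medium against 10.37 to 10.93 (median 10.42) in fresh intima (-3.07 ± 0.32, adjusted p = 2.1e-05), with nearly 2 units between medium arrays. Has1, a hyaluronan synthase, was the rise of the matrix list (1.78 ± 0.27, adjusted p = 2.6e-04). Proteases and their inhibitors had 4 higher and 3 lower calls of 11 tested. Adamts4, which cuts proteoglycans, read 9.48, 9.94 and 9.22 in medium against 3.56 to 5.50 (median 4.37) in fresh intima, 34.4-fold higher (adjusted p = 1.5e-06). Mmp12, macrophage elastase (3.06 ± 0.52), Timp1, an inhibitor of metalloproteases (2.63 ± 0.31), and Adamts1 (2.05 ± 0.19) were higher and Mmp2 lower (-1.95 ± 0.25) (adjusted p = 5.1e-04, 4.3e-05, 1.0e-05 and 8.4e-05), though Mmp12 reached only 0.05 with the smooth muscle covariate.

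Smooth muscle contractile genes were lower in 13 of 16 tested, with none higher and a median of -0.96. Myh11, smooth muscle myosin, read 9.93, 10.28 and 11.02 in medium against 11.17 to 11.63 (median 11.45) in fresh intima (-1.0 ± 0.21, adjusted p = 0.0019). The medium array labelled 11 stood close to the fresh arrays, and Acta2, smooth muscle actin, repeated this order (9.53, 9.90 and 10.73 in medium, 11.14 to 11.61 (median 11.31) in fresh intima). Fibroblast genes divided, with Mfap5 (-2.10), Col3a1 (-2.61) and Serpinf1 (-1.87) lower and Dcn, decorin (1.33), and Lum, lumican (1.29), higher, 8 lower and 2 higher of 10. With the mean of the smooth muscle list as a covariate, which widens the median SE 1.73 times, lower calls numbered 8 in the matrix list and 5 in the fibroblast list, and Dcn and Lum had no call (adjusted p = 0.18 and 0.20). That fit says nothing about the smooth muscle genes themselves, Myh11 and Acta2 among them, since their own mean is the covariate. In the same fit 18 of 19 ATF4 genes, 36 of 38 ribosome assembly genes, 19 of 27 HIF and glycolysis genes and 18 of 27 immediate early genes were called higher, and so were 7 of 19 macrophage genes and 2 of 12 chemokines. Since the covariate did not overlap between the groups, these counts do not separate cell composition from incubation.

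Of 24 measured macrophage genes 19 passed the filter, and 13 of these were higher. The median difference was 1.14 among tested and 0.93 among all measured members. Cd68, a lysosomal protein of macrophages, read 6.69, 6.86 and 6.92 in medium against 3.74 to 5.00 (median 4.75) in fresh intima (4.88-fold, adjusted p = 2.9e-05). C1qc (1.68), Cd53 (1.64), Tyrobp (1.37) and the mannose receptor Mrc1 (1.34) were higher too. The 4 falls were the scavenger receptor Cd163 (-1.79 ± 0.40, adjusted p = 0.0027), F13a1 (-1.23), Lyve1 (-0.83) and the folate receptor Folr2 (-0.66). Mrc1 is known from resident perivascular macrophages like these. Mrc1 rose where these 4 fell, but its lowest medium array (5.15) lay below its highest fresh array (5.26). Of 10 measured MHC class II genes 6 passed the filter and 5 rose. Their median difference was 1.84 among tested and 0.99 among all measured members. H2-Aa was at 7.80, 7.95 and 7.52 in medium against 4.71 to 6.90 (median 5.71) in fresh intima (3.99-fold, adjusted p = 8.4e-04). The regulator of this class, Ciita, did not pass the filter. Of 11 tested complement genes 5 were called higher and 1 lower, among them component C4b (2.13), the anaphylatoxin receptor C3ar1 (3.13) and the fall, the complement inhibitor Cd59a (-1.59). Of 7 tested red cell and platelet genes 4 were called lower and none higher, with Hba-a1 at -1.57 and the heme synthesis gene Alas2 at -1.66, and the Hba-a1 probes may also read its gene copy. Without the medium array labelled 10 Lyve1 and Folr2 had no call (adjusted p = 0.059 and 0.054). Lyve1 had none either without array 11 (adjusted p = 0.074), with the mean of probe sets (0.056) or in the fit of all 22 arrays (0.089), and Folr2 none after cyclic loess (0.055). With the smooth muscle covariate Mrc1, Tyrobp, Cd163, Lyve1, Folr2, H2-Aa and Alas2 had none (adjusted p from 0.058 for Alas2 to 0.17 for Tyrobp).

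The clock list had no common direction, with 4 higher and 5 lower of 17 tested, no more than the shares over all genes. Arntl, which encodes the clock activator BMAL1, was higher by 2.68 ± 0.19 and Cry1, a clock repressor, by 3.45 ± 0.25 (adjusted p = 1.9e-06 and 2.0e-06). Dbp read 6.26, 5.74 and 5.84 in medium against 5.98 to 8.66 (median 7.60) in fresh intima (-1.49 ± 0.45, adjusted p = 0.016), and Per3 was lower by 2.50 on the log2 scale (SE 0.41, adjusted p = 3.8e-04). Both vary by over 2 units among the fresh arrays, and Dbp lost its call without the medium array labelled 10 (adjusted p = 0.058). Harvest times are not given in the sources used here. Noct, which encodes the clock-regulated phosphatase nocturnin, was higher by 4.89 ± 0.20 (adjusted p = 7.2e-08). Of the glucocorticoid-induced genes 7 were higher and 5 lower of 18, with Tsc22d3, which encodes the hormone-induced protein GILZ, at -2.06 ± 0.30 (adjusted p = 1.7e-04).

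Mitotic and replication genes had 9 lower and 2 higher calls of 17 tested. The falls included Mki67, the proliferation antigen (-2.19 ± 0.29, adjusted p = 1.0e-04), and Ccna2 (-1.53), and the rises included Pcna, the replication clamp (1.2). The cell cycle inhibitor Cdkn1a (p21) was higher by 3.42 ± 0.17 (adjusted p = 2.0e-07). Other p53 targets had no common direction, 7 higher and 7 lower of 19, with Pmaip1, a death effector, at 2.70 and Sesn1 at -1.98. Sterol synthesis genes were higher in 5 and lower in 3 of 12 tested, with Msmo1 at 1.95 and Ebp at -1.23, both enzymes of that pathway. Abcg1, a cholesterol exporter and LXR target, was higher by 1.5 ± 0.25 (adjusted p = 4.5e-04), the single rise among 8 tested LXR genes, of which 3 were lower.

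Outside these lists, the largest rise was in Olr1, which encodes LOX-1, the endothelial receptor for oxidised LDL. It read 9.20, 9.37 and 8.88 in medium against 3.20 to 3.53 (median 3.30) in fresh intima, 56.7-fold higher (adjusted p = 1.0e-09), in a medium without added oxLDL. All its fresh values lay below the 40th percentile, close to background. Nptx1, a neuronal pentraxin (5.36 ± 0.29), Sprr1a, a cornified envelope protein also known from injured neurons and heart (5.05 ± 0.32), and the galactosyltransferase B4galt5 (4.47 ± 0.22) were also among the 15 largest rises (adjusted p = 3.7e-07, 9.1e-07 and 2.0e-07). The largest fall was in Nrep, a small protein linked to regeneration and TGF-beta signalling, which read 6.57, 6.10 and 6.57 in medium against 11.18 to 11.61 (median 11.47) in fresh intima (-5.02 ± 0.14, adjusted p = 4.6e-09). It was followed by Adamts10, a microfibril-associated protease homologue (-3.39 ± 0.20), Ankmy2 (-3.22 ± 0.19), the nucleosome-binding protein Hmgn3 (-3.15 ± 0.15) and the basement membrane collagen Col4a5 (-3.12 ± 0.24), with adjusted p of 6.0e-07, 5.5e-07, 1.6e-07 and 3.0e-06. Casq1, a calcium store protein of muscle (-3.06), Hspa12b, an endothelial HSP70 relative (-3.06), and Sp100, a nuclear body protein (-3.04), also stood among the 15 largest falls.

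Explants given LPS, oxLDL or oxPAPC were set against fresh ApoE-/- intima, a comparison that shares no array with the one above. There stimulus and genotype cannot be told apart from incubation, since its groups differ in all of them. Smooth muscle and macrophage markers differed in the same directions. Smooth muscle markers were at 8.27 to 9.03 in stimulated explants and 9.39 to 9.57 in fresh ApoE-/- intima. Macrophage markers were at 4.77 to 5.38 in stimulated explants and 4.17 to 4.67 in fresh ApoE-/- intima. Endothelial markers reached lower in stimulated explants, at 7.98 to 9.03 against 8.96 to 9.06 in fresh ApoE-/- intima. Fibroblast markers were at 5.70 to 6.54 in stimulated explants and 6.07 to 7.16 in fresh ApoE-/- intima. Of 7727 tested genes 62.2% were called, 25.6% higher and 36.5% lower, and 9.86% were higher and 12.5% lower by at least 1 log2 unit. Cyclic loess turned the calls to 2508 higher and 2351 lower, and median centring to 2835 higher and 2021 lower, against 1981 higher and 2822 lower as deposited. Of 1815 genes higher in medium and tested in both, 1477 (81.4%) were called higher in stimulated explants, and of 2528 lower in medium 2096 (82.9%) were called lower. Taken the other way, 79.4% of the genes higher in stimulated explants and 75.2% of those lower there were called alike in medium.

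By gene, Ptgs2 was higher by 6.84 in stimulated explants, Chac1 by 5.01, Slc7a5 by 5.01, Slc2a1 by 2.60, Hmox1 by 5.63 and Olr1 by 4.92. Nrep was at -3.83, Eln at -3.31, Klf2 at -1.91, Klf4 at 0.94, Edn1 at -0.77 and Clec14a at -2.88. The divided pairs held the same directions there, with Gja4 at 1.59 and Gja5 at -1.91, and Dll4 at 1.54 and Hey2 at -2.19. Each of these genes was called in both comparisons. Nos3 was not: it was at 0.19 in stimulated explants (adjusted p = 0.6), where the arrays ranged over 5.84 to 8.27, against 6.91 to 7.45 in fresh ApoE-/- intima. By list the medians were 1.72 for ATF4 genes, 1.51 for ribosome assembly, -0.16 for ribosomal proteins and -1.23 for matrix. Ribosomal protein genes had 10 lower and 2 higher calls of 31 tested in stimulated explants. Some list medians changed sign, complement among them, at 0.51 in medium and -0.15 in stimulated explants. Interferon-induced genes were at -0.50 in medium and 0.09 in stimulated explants, and the endothelial list at 0.09 and -0.28.

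Among genes called in medium, 14 were called in the opposite direction in stimulated explants. Calls there average 3 stimuli, and the range with each is given for the genes named here. Rsad2, the interferon-induced antiviral enzyme, was lower in medium (-1.22 ± 0.40, adjusted p = 0.023) and called higher over the stimulated explants (0.77, adjusted p = 0.023). It read 9.56 to 10.82 with LPS, 6.32 to 6.84 with oxLDL and 5.58 to 6.67 with oxPAPC, against 6.42 to 7.56 in fresh ApoE-/- intima, and the LPS arrays alone lay above all of the fresh ones. Abcg1 was higher in medium (1.5 ± 0.25) and called lower over the stimulated explants (-0.58, adjusted p = 0.011). It read 6.55 to 7.48 with LPS, 7.99 to 8.43 with oxLDL and 6.58 to 7.10 with oxPAPC, against 7.63 to 8.16 in fresh ApoE-/- intima and 6.01 to 7.23 (median 6.77) in fresh wild-type intima. Both genes were named after their values were seen, and the difference between the comparisons was not tested.

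**Figure D5:**
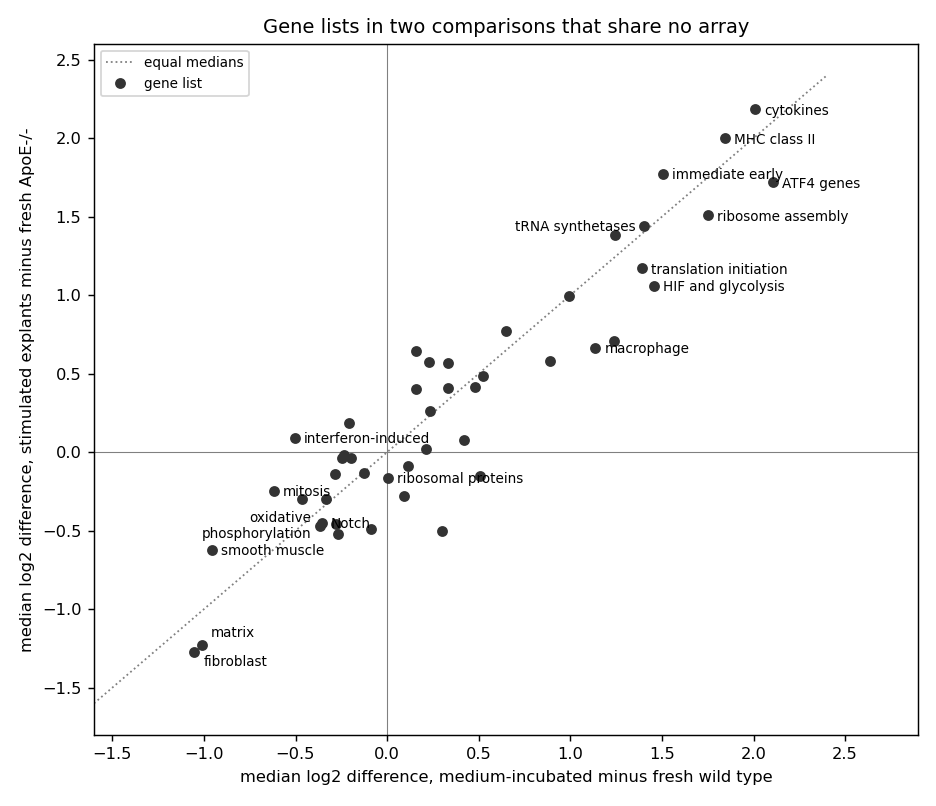
Median log2 difference over the tested members of each gene list with at least 6 tested members. The horizontal axis shows medium-incubated minus fresh wild-type intima, and the vertical axis stimulated explants minus fresh ApoE-/- intima. A dotted line marks equal medians. Over all measured members the horizontal median was 0.9 for cytokines and 0.99 for MHC class II. Cytokine, ATF4, MHC class II and ribosome assembly lists lie high on both axes, matrix, fibroblast and smooth muscle lists low on both, and the ribosomal protein list near 0 on the horizontal axis.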

How the data were processed

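Each array measured total RNA scraped from the intima of mouse aortae on a 3' expression array. Per the submitters' processing notes, the authors used RMA in the affy package. The deposited values are log2 signals of probe sets, and the version, the genome build and whether all arrays were normalized in 1 run are not given in the sources used here. RMA makes the arrays' distributions alike, so a change shared by most transcripts would not show. Probe sets were named through the platform annotation, and symbols were updated by gene ID through a RefSeq table of GRCm38.p6 used for names only: of 22626 probe sets, 18003 had 1 symbol, 287 had several and 4336 had none, and 17977 matched. Of the 11807 genes, 4150 had more than 1 probe set, and the one with the highest mean over all 22 arrays was used. A gene was tested where it lay above its array's 40th percentile on at least 3 arrays, which left 7508. The test was limma (version 3.58.1, R 4.3.3) with Benjamini-Hochberg adjustment over all tested genes, and a call is an adjusted p under 0.05. Every adjusted p in the report comes from it. Tables and figures used Python 3.11.15, pandas 2.3.3 and matplotlib 3.10.9. On simulated data for the comparison of medium with fresh wild type, on 7508 genes, the test recovered 29.9%, 79.1% and 100% of changes of 0.5, 1 and 2 log2 units, with 8 false among 148 calls. The real comparison had 4410 calls, so these rates need not hold for it. The number of arrays limits the precision. Nothing in the labels ties an array to 1 animal, so p-values measure the spread between these arrays only.

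The members and lists were chosen with earlier results of these data known. Genes were named by rule: the 15 called genes that differed most in each direction, up to 5 called members of each list in each direction, and other tested members of a list described member by member. Alternatives changed the scaling, the filter, the probe set, the spread estimate and the arrays, or added the mean of the smooth muscle list as a covariate.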

Additional observations from a re-analysis of the deposited data

Results flagged for a closer look

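In the fresh wild-type group of 6 arrays, a single array stood apart from the other 5 for 12 of the 225 genes named in the report, by a gap whose share of the whole range passed Dixon's 95% critical value. Chance alone gives such a gap in about 1 of 20 groups, or about 11 genes here. The fresh array labelled 12 was the one that stood apart for 6 of them. It read 8.67 for Cdh5 and 8.161 for Gja5, below the others, and 6.401 for Tyrobp and 6.948 for Cxcl16, also below, but 5.125 for Jam3 and 11.78 for Col3a1, above the others. Array 15 read 7.543 for Atf4, below the others, and 6.404 for Ets1 and 5.26 for Mrc1, above them. Array 14 read 10.02 for Thbd, below, and 4.224 for Sesn2, above. Array 13 read 7.34 for Decr1, below. Leaving out the array concerned ended no call among these genes. The medium group of 3 arrays is too small for this rule.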

How the results depend on the processing

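Under cyclic loess, median centring, no filter, the 60th percentile filter, the mean of probe sets, limma-trend, all 22 arrays in 1 fit and each single array left out, the 4410 genes called in medium against fresh wild type became 3506 to 4813. Leaving out single arrays gave 3758 to 4365 (1592 to 1813 higher and 2166 to 2552 lower). Testing every probe set on its own gave 6666 calls, 2996 of them higher, since genes then count more than once. With the mean of the smooth muscle list as a covariate there were 2357 calls, 1118 higher and 1239 lower. The median standard error was then 1.73 times as large, 4369 of the 4410 called genes kept their direction and 2287 kept the call. In stimulated explants against fresh ApoE-/- intima, 4803 genes were called and the same alternatives gave 3757 to 5614. Single arrays left out gave 4390 to 4917 (1824 to 2008 higher and 2566 to 2909 lower), and each stimulus left out gave 4494 to 4665. Every probe set gave 7305 calls, 3189 of them higher, and the covariate gave 2110, 967 higher and 1143 lower. Scaling moved the split there, to 2508 higher and 2351 lower calls with cyclic loess and to 2835 and 2021 with median centring. Of 206 called genes that the report names, 196 were called with each single array left out and 156 in every alternative that tested them. Some sign changes occurred, and the cause was not tested. With the covariate the differences were -0.0516 for Bop1, 0.3443 for Car9, -0.1689 for Cxcl10, 0.0352 for Nqo1 and 0.02054 for Srf. The mean of probe sets gave -0.1177 for Jun. Rpl3 was at 0.03484 with cyclic loess and 0.1334 with median centring. With single arrays left out, Rpl3 lay between -0.04136 and 0.007582 and Bop1 between -0.1347 and 0.1734, neither being called in the report. No paired analysis was possible because the medium and fresh wild-type arrays share no replicate number, and among the stimulated explants only the LPS arrays share numbers with the ApoE-/- arrays.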
